A study of Mus musculus with 6 samples.

Results

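Genes of fatty acid oxidation were followed in RNA sequencing of mouse bone marrow LSK cells, the haematopoietic stem and progenitor fraction that lacks lineage markers and carries Kit and Sca1. They were taken by name from the 24063 gene symbols of the count table, and all 9 were found: Ehhadh, Acaa1a, Hsd17b4, Cpt1a, Cpt2, Acadm, Acadl, Acadvl and Hadha. Ehhadh was selected on its own CPM values in these 6 libraries (CPM, read counts scaled for library size by TMM), because they differed between the groups, so it is described without a test. The other 8 were picked for their function. The 3 knockout libraries came from Arid2fl/fl:MxCre+ mice and the 3 control libraries from MxCre+ mice, all on a C57/BL6 background. Arid2 encodes a subunit of the PBAF chromatin remodelling complex, and Cre is driven by the interferon-responsive Mx1 promoter, which is active in many tissues besides blood. Both groups carried Cre and both received pIpC, the double-stranded RNA that induces it, at 6 to 8 weeks of age, with cells sorted 6 weeks afterwards. The labels do not state which animals or litters gave which library, so a p-value here reflects only how these libraries vary, which may be technical.

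Fatty acids are oxidised in 2 compartments. In mitochondria, Cpt1a and Cpt2 bring long-chain acyl groups in through carnitine, the acyl-CoA dehydrogenases (Acadvl, Acadl, Acadm) carry out the first oxidation on chains of decreasing length, and Hadha, a subunit of the trifunctional protein, carries out the next steps. In peroxisomes, which shorten very long and branched chains, a first oxidation is followed by one of a pair of bifunctional enzymes, encoded by Ehhadh and Hsd17b4, and by the thiolase encoded by Acaa1a. Many of these genes are known targets of the PPAR nuclear receptors, which bind direct repeats of a half-site together with RXR. In blood, fatty acid oxidation is known for its part in the maintenance of haematopoietic stem cells.

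Library depth lay between 12408966 and 28185678 counted reads. Arid2 itself had 163, 150 and 155 CPM in knockout replicates 1 to 3 and 165, 154 and 148 CPM in control replicates 1 to 3, so its level does not separate the groups. Such a sum over all exons cannot check the loss of the floxed ones, and the directions below rest on the labels. All knockout libraries and control replicate 2 had high Xist (1916 to 2016 CPM), whereas control replicates 1 and 3 had high Y-linked transcripts (252 and 277 CPM), so sex and group overlap in this design. All 8 listed markers of the sorted fraction were detected, Kit at 426 to 655 CPM and Cd34 at 373 to 642 CPM over the 6 libraries, while Ly6a, which encodes Sca1, had 12.4 to 22.3 CPM. The summed level of those markers was 1305 to 1449 CPM in the knockout libraries and 1665 to 2062 CPM in the controls.

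The 250 bases before the start site are shown for Ehhadh, the gene with the largest difference, and for Acadm, a mitochondrial gene whose window held a sequence closer to the PPAR repeat. Sequences are from RefSeq on GRCm38.p6, 5′ to 3′ on the gene's strand. The Ehhadh window is chr16:21787835-21788084 (minus strand) and the Acadm window chr3:153944644-153944893 (minus strand). Capitals mark each CCAAT, each GGGCGG (GC box) and each AGGTCA (nuclear receptor half-site), read on either strand.
Ehhadh: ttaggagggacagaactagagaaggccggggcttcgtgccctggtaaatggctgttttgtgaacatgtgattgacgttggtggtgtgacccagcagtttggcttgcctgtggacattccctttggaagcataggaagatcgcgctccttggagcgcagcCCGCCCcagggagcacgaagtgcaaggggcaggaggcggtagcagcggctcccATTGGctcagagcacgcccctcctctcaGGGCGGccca
Acadm: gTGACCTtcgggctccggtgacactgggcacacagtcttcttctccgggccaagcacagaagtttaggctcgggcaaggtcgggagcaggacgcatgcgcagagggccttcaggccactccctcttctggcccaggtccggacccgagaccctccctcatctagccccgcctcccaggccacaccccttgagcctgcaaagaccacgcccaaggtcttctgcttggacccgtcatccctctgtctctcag
The Ehhadh window held 1 CCAAT on the opposite strand, 33 bases before the start, and 2 GC boxes, and held no AGGTCA. The Acadm window held 1 AGGTCA on the opposite strand, 243 bases before the start, and neither of the other motifs. Promoters of 8 of the 9 genes were in the RefSeq table, with Hsd17b4 not among them. CCAAT was in 3 of the 8 (Acaa1a, Ehhadh and Cpt1a) and in 33.8% of all 32851 promoters of the same length. GGGCGG was in 6 of the 8 against 32.7% of all, and AGGTCA in 3 of the 8 (Acadm, Acadvl and Cpt1a) against 14% of all. The complete DR1 repeat, this half-site repeated in tandem with a single base between, was in none of the 8 and in 0.0335% of all promoters, and TATAAA was in none of the 8 and in 12.4% of all. The closest approach to the repeat differed from it at 3 bases in Acadm and at 4 in Ehhadh. Of all promoters, 21.3% came as close as Acadm or closer, and 74.5% as close as Ehhadh or closer. A match or its absence describes only these letters in these windows.

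Ehhadh (ENSMUSG00000022853, chromosome 16, 21761287 to 21787807, minus strand, mm10), which encodes the L-bifunctional enzyme of peroxisomes, had 11, 30 and 14 reads in knockout replicates 1 to 3 and 116, 147 and 108 reads in control replicates 1 to 3. After scaling these were 0.581, 1.21 and 1.12 CPM in the knockout libraries against 7.13, 5.22 and 7.44 CPM in the controls. Every knockout library lay below every control library, and the nearest libraries of the groups, knockout replicate 2 and control replicate 2, were 1.21 and 5.22 CPM. The mean was 0.972 ± 0.341 CPM in the knockout libraries and 6.60 ± 1.20 CPM in controls (SD, n = 3 each), or 14.7% of the control mean. The log2 fold change was −2.75 with an SE of 0.31, the 19th lowest of 13679 genes tested. Ehhadh was chosen for this change, so the rank is a description. The female control, replicate 2, was the lowest of the controls, and with sex as a term in the model the log2 fold change was −2.42 with an SE of 0.37. In RNA from a sorted population, fewer cells with the transcript and less transcript per cell cannot be told apart.

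**Figure D1:**
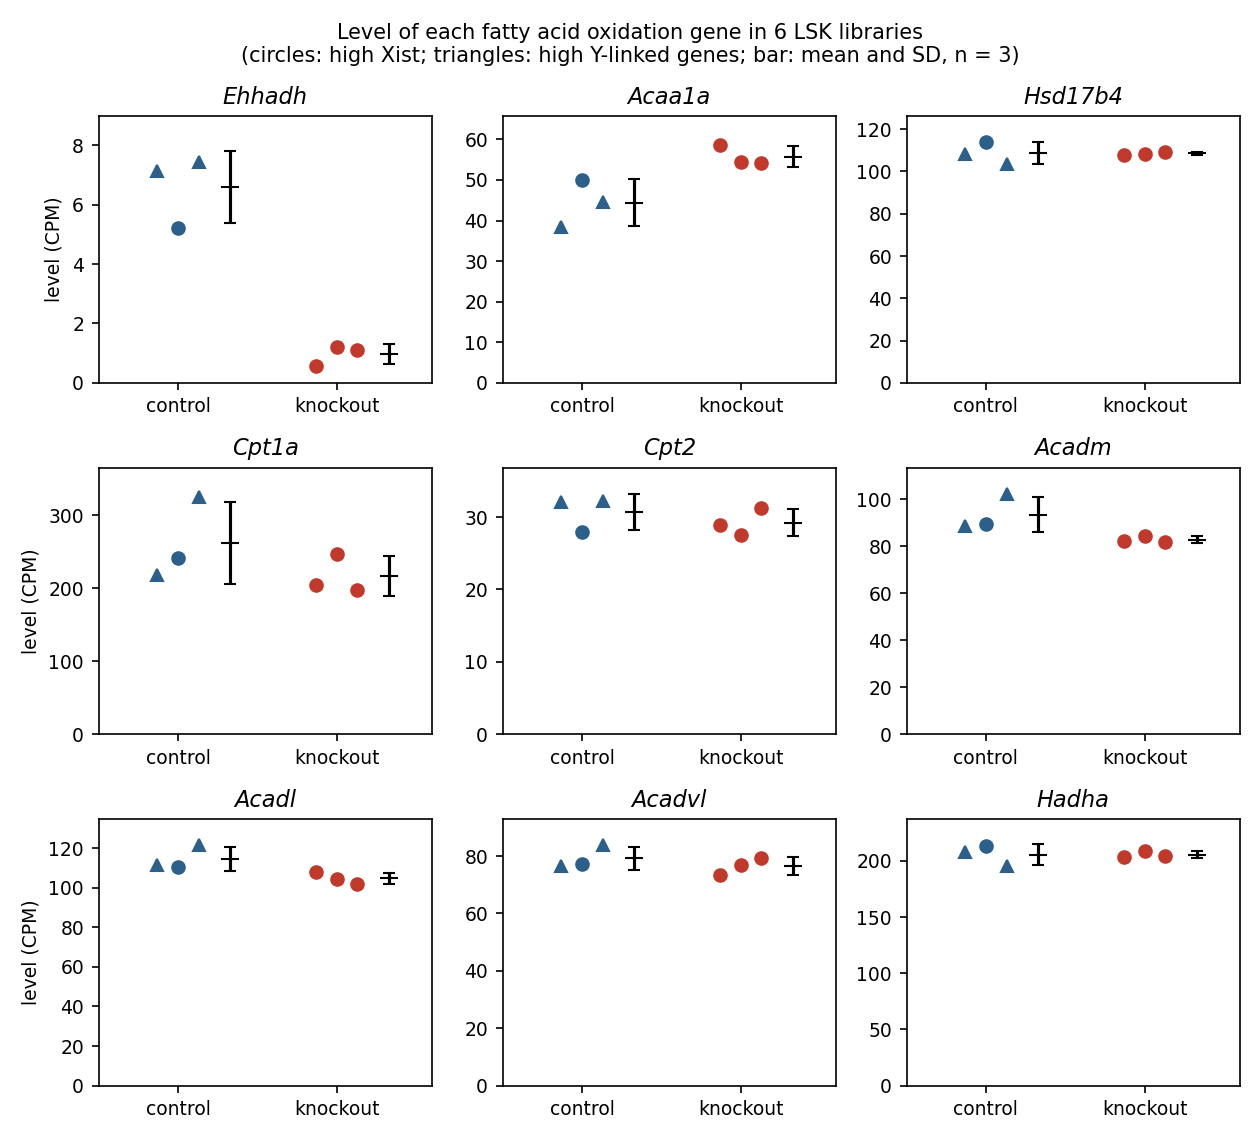
Level of each of the 9 genes in CPM (vertical axes start at 0) in the 3 control (blue) and 3 knockout (red) libraries, with circles for libraries with high Xist, triangles for those with high Y-linked transcripts, and a bar for the mean and SD. Ehhadh lay at 0.581 to 1.21 CPM in the knockout libraries and at 5.22 to 7.44 CPM in controls, while knockout means of the other 8 genes were 82.8% to 125.5% of their control means.

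The other bifunctional enzyme did not follow Ehhadh. Hsd17b4 (ENSMUSG00000024507, chromosome 18, 50128201 to 50196269, plus strand), which encodes the D-bifunctional enzyme for branched and very long chains, had 108, 108 and 109 CPM in the knockout libraries and 108, 114 and 104 CPM in the controls. The groups overlapped, with a log2 fold change of 0.00 (SE 0.06, edgeR adjusted p = 0.975), and the ratio to control had a 95% confidence interval of 90.7% to 110%. Per kilobase of transcript, Hsd17b4 was 16.9, 24.3 and 15.5 times the level of Ehhadh in control replicates 1 to 3. In knockout replicates 1 to 3 it was 206, 99.5 and 108 times the level of Ehhadh. Within controls, Ehhadh was thus already the minor of the pair.

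Acaa1a, the peroxisomal thiolase (ENSMUSG00000036138, chromosome 9, 119339676 to 119350299, plus strand), leaned the other way. It had 58.7, 54.3 and 54.1 CPM in the knockout libraries against 38.4, 50.1 and 44.6 CPM in controls. Every knockout library was above every control, with the female control nearest to them. The log2 fold change was 0.32 (SE 0.10) and did not pass the test (edgeR adjusted p = 0.0849), though it did without control replicate 2 (adjusted p = 0.0402), and with the sex term it was 0.15 (adjusted p = 0.675). Acaa1b, a close copy next to it, was at most 0.846 CPM and was not tested, and reads shared between the copies could have been counted to either. Acaa1a also shares 290 exonic bases with Myd88 on the opposite strand, and no source used here states whether counting used the strand.

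The carnitine palmitoyltransferases did not pass the test. Cpt1a (ENSMUSG00000024900, chromosome 19, 3322334 to 3385733, plus strand), the carnitine palmitoyltransferase of the outer membrane and the rate-limiting entry step, had 204, 247 and 198 CPM in the knockout libraries. In the controls it had 218, 241 and 325 CPM. Control replicate 3 stood above the other 5 libraries, which overlapped. The log2 fold change of −0.27 (SE 0.15, edgeR adjusted p = 0.304) became −0.09 without that library. Cpt2 (ENSMUSG00000028607, chromosome 4, 107903981 to 107923610, minus strand), which releases acyl groups from carnitine inside the mitochondrion, had 28.9, 27.5 and 31.3 CPM against 32.0, 27.9 and 32.2 CPM. Its groups overlapped (log2 fold change −0.07, SE 0.10, edgeR adjusted p = 0.697), and the ratio to control had a 95% confidence interval of 81.8% to 111%.

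In Acadm, Acadl and Acadvl, small differences ran in one direction and did not pass the test. Other acyl-CoA dehydrogenase genes went both ways. Acadsb, which passed with edgeR, had a log2 fold change of 0.436, and Acad9, Acad10, Acad11 and Acad12 had 0.115, 0.063, 0.143 and 0.159. Acads had −0.137. Apart from Acadsb, these other genes did not pass and were named after their values were seen. Acadm (ENSMUSG00000062908, chromosome 3, 153922357 to 153944632, minus strand), which acts on medium chains, had 82.1, 84.3 and 81.6 CPM in the knockout libraries and 88.5, 89.5 and 102 CPM in controls. Acadl (ENSMUSG00000026003, chromosome 1, 66830839 to 66863277, minus strand), which acts on long chains, had 108, 105 and 102 CPM against 112, 110 and 121 CPM. In both genes every knockout library was below every control, and control replicate 3 was the highest. Their log2 fold changes were −0.17 (SE 0.07, edgeR adjusted p = 0.17) and −0.13 (SE 0.06, adjusted p = 0.257). Acadvl (ENSMUSG00000018574, chromosome 11, 70010183 to 70015411, minus strand), which acts on very long chains, had 73.4, 76.9 and 79.4 CPM against 76.4, 77.2 and 83.9 CPM. These groups overlapped (log2 fold change −0.05, SE 0.07, adjusted p = 0.701), and the gene shares 1151 exonic bases with Dvl2 on the opposite strand.

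Hadha (ENSMUSG00000025745, chromosome 5, 30118304 to 30155162, minus strand), the large subunit of the mitochondrial trifunctional protein, had 203, 209 and 204 CPM in the knockout libraries and 208, 213 and 196 CPM in controls. The groups overlapped, the log2 fold change was 0.00 (SE 0.06, edgeR adjusted p = 0.995), and the ratio to control had a 95% confidence interval of 91.1% to 110%. Hadhb, which encodes the partner subunit and was named after its values were seen, had 30.2, 27.9 and 27.9 CPM against 27.1, 29.4 and 28.7 CPM (log2 fold change 0.01, adjusted p = 0.951). Neither subunit gene differed beyond the spread between libraries.

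Of the 8 genes other than Ehhadh, 0 passed the edgeR test, beside 8.42% of all 13679 genes called in either direction (3.85% higher and 4.58% lower). DESeq2 called 0 of the 8 as well, beside 1668 of the 13679 genes (833 higher and 835 lower). At an unadjusted p under 0.05 there were 2 of the 8, Acaa1a and Acadm, beside 24.9% of all genes. The groups did not overlap in 3 of the 8 (Acaa1a higher, Acadm and Acadl lower), beside 31.2% of all genes. The members' shares lie near these backgrounds. The median log2 fold change of the 8 was −0.06, and that of all genes tested was 0.00.

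**Figure D2:**
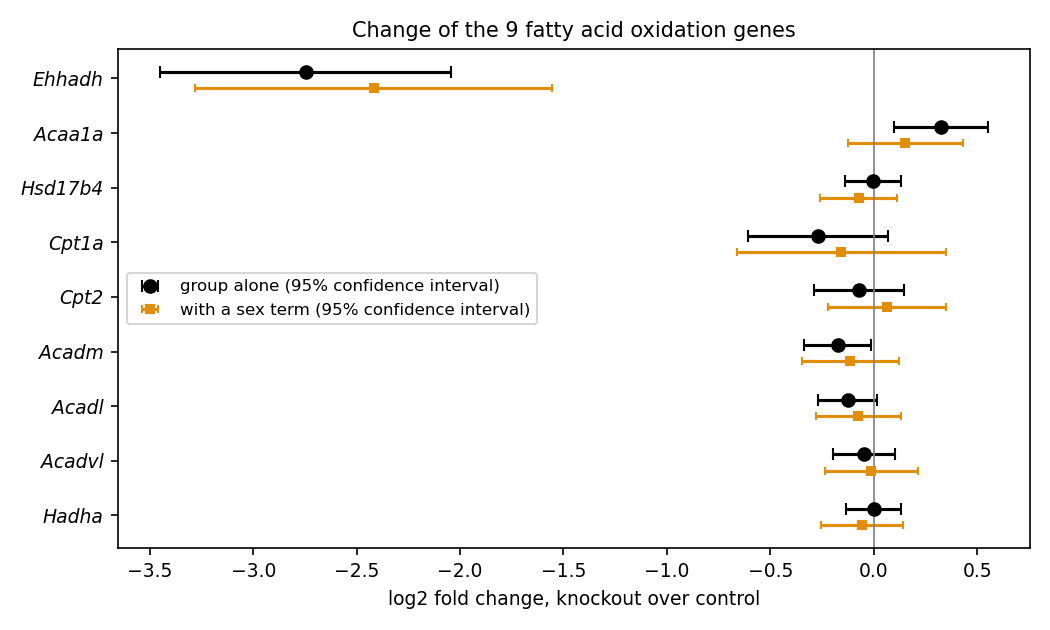
Log2 fold change of knockout over control (horizontal axis) for the 9 genes, by group alone (black circles) and with a sex term (orange squares), each with its 95% confidence interval. Ehhadh stands at −2.75 and −2.42, and the other 8 lie between −0.27 and 0.32 by group alone.

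Levels between genes were compared per kilobase of the principal annotated transcript. In controls Ehhadh was the lowest at 2.21 ± 0.403 CPM per kb (SD, n = 3), followed by Cpt2 at 12.95 ± 1.03, Acaa1a at 25.2 ± 3.32 and Acadvl at 36.5 ± 1.90 CPM per kb. Above these came Hsd17b4 at 40.5 ± 1.95, Acadm at 45.6 ± 3.67, Hadha at 51.2 ± 2.27, Acadl at 59.7 ± 3.16 and Cpt1a at 60.5 ± 13.03 CPM per kb. The ranges of control libraries overlapped for Acadvl and Hsd17b4, for Acadm and Hadha, and for Cpt1a with both Acadl and Hadha, so the order within those pairs is not settled. In the knockout libraries Ehhadh was at 0.326 ± 0.114 and Cpt2, the next gene, at 12.3 ± 0.808 CPM per kb. Ehhadh was therefore the lowest of the 9 in each of the 6 libraries, whereas the other 8 spanned 11.6 to 75.3 CPM per kb.

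**Figure D3:**
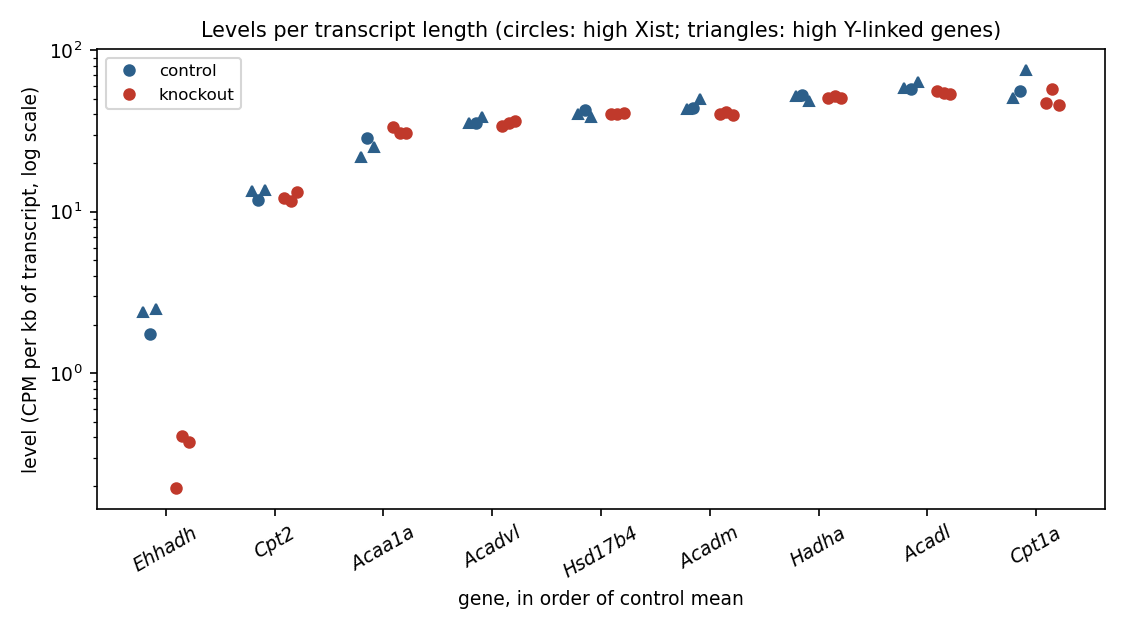
Level of each gene in CPM per kilobase of transcript (log axis) in the 3 control (blue) and 3 knockout (red) libraries, ordered by control mean, with circles for high Xist and triangles for high Y-linked transcripts. Ehhadh, at 1.75 to 2.50 in controls and 0.195 to 0.406 in knockout libraries, lies below every other gene in both groups.

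The rest of the pathway was read from lists of genes by role. To be set beside them, edgeR called 3.85% of all genes tested higher and 4.58% lower, with 24.9% at an unadjusted p under 0.05. DESeq2 called 833 of all 13679 genes higher and 835 lower. Of 20 other peroxisomal oxidation genes 18 were tested, of which by edgeR 3 rose, 0 fell and 15 did not pass (8 at an unadjusted p under 0.05, and 0 lower by DESeq2), and the list's median log2 fold change was 0.22. Those that rose were Crat, a carnitine acetyltransferase (48.0, 40.3 and 43.2 CPM against 29.1, 33.1 and 27.6 CPM, a log2 fold change of 0.55, adjusted p = 0.0184 by edgeR), Pecr, a peroxisomal enoyl-CoA reductase (0.46, adjusted p = 0.0362), and Acox3, an oxidase for branched chains (0.30, adjusted p = 0.0309). DESeq2 also called Phyh and Acbd5 higher (DESeq2 adjusted p = 0.0237 and 0.0496, edgeR adjusted p = 0.0505 and 0.0624), both named after their values were seen. Slc27a2, a very-long-chain acyl-CoA synthetase named after its values were seen, had 1.22, 0.282 and 0.401 CPM against 1.91, 1.71 and 1.31 CPM. It did not pass (log2 fold change −1.37, edgeR adjusted p = 0.137).

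Of 18 other mitochondrial oxidation genes, all tested, 1 rose, 2 fell and 15 did not pass, with a median log2 fold change of −0.01. Hadh, the hydroxyacyl-CoA dehydrogenase for shorter chains, fell from 87.3, 82.7 and 90.6 CPM in controls to 57.9, 60.3 and 57.9 CPM in knockout libraries (a log2 fold change of −0.56 with SE 0.06, adjusted p = 0.00346 by edgeR). Its knockout libraries were all well below the lowest control. Decr1, a dienoyl-CoA reductase for unsaturated chains, fell as well (−0.42, adjusted p = 0.0314), and Acadsb, which acts on short branched chains, rose (0.44, adjusted p = 0.0261).

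Uptake and activation genes numbered 11, of which by edgeR 0 rose, 1 fell and 10 did not pass. Of them 5 had an unadjusted p under 0.05, beside 24.9% of all genes tested, and the median was 0.03. The one that fell was Slc27a1, a fatty acid transport protein (28.2, 33.4 and 30.8 CPM against 39.8, 43.7 and 42.3 CPM, log2 fold change −0.45, edgeR adjusted p = 0.0244). DESeq2 also called Acsl6, an acyl-CoA synthetase, higher (5.23, 4.36 and 8.99 CPM against 1.04, 1.81 and 3.99 CPM, DESeq2 adjusted p = 0.0123, edgeR adjusted p = 0.0942). It called Fabp5, a fatty acid binding protein, lower (DESeq2 adjusted p = 0.0272, edgeR adjusted p = 0.0666). Cd36, a fatty acid receptor, had 15.01, 28.5 and 49.8 CPM against 6.64, 10.9 and 15.9 CPM and passed with neither tool (edgeR log2 fold change 1.47, adjusted p = 0.0731). These 3 genes were named after their values were seen. Of 9 genes for PPAR receptors, RXR partners and coactivators 7 were tested and 0 passed, with 3 at an unadjusted p under 0.05 and 1, Pparg, called by DESeq2. The receptor best known for control of Ehhadh, Ppara, had at most 0.138 CPM in any library and was not tested. Pparg had 4.97, 7.501 and 17.4 CPM against 2.15, 5.90 and 4.48 CPM (a log2 fold change of 1.21 with SE 0.49, adjusted p = 0.17 by edgeR), with knockout replicate 3 well above the rest, and 0.56 without it. Ppargc1b, a coactivator, had a log2 fold change of −0.32 (edgeR adjusted p = 0.2). The coactivator Ppargc1a, named after its values were seen, was low, at 0.898, 0.605 and 0.562 CPM against 1.17, 1.67 and 1.72 CPM. Every knockout library was below every control, and it did not pass (log2 fold change −1.13, edgeR adjusted p = 0.0801).

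Of 12 further PPAR target genes 7 were tested, of which 1 rose and 1 fell. Angptl4, a secreted inhibitor of lipoprotein lipase, fell (13.7, 14.9 and 14.1 CPM against 18.99, 19.97 and 22.04 CPM, log2 fold change −0.51, edgeR adjusted p = 0.0271). That call was lost with the sex term and in all 6 fits with 1 library left out (log2 fold change −0.56 to −0.45). Lpl, which encodes that lipase, rose (34.3, 55.8 and 109 CPM against 19.2, 24.3 and 20.1 CPM, log2 fold change 1.63, edgeR adjusted p = 0.0318), with its highest value in knockout replicate 3 and a log2 fold change of 1.09 without it. The Lpl call was lost with limma-voom, with the sex term and in 4 of the 6 fits with 1 library left out. The macrophage gene C1qa, named after its values were seen, had 57.5, 102 and 153 CPM in the same knockout libraries and 23.5, 38.8 and 63.4 CPM in controls. Its groups overlapped and it did not pass (edgeR adjusted p = 0.0807). Lyz2, another monocyte and macrophage marker, had 1181, 1233 and 1273 CPM against 771, 804 and 682 CPM. Any link of these markers to Lpl was not tested. Of 19 peroxisome assembly and marker genes, all tested, 0 passed with edgeR and 0 with DESeq2. An unadjusted p under 0.05 was found for 2 of them, beside 24.9% of all genes tested. Pex11a and Pex6 had log2 fold changes of −0.38 and −0.23 (adjusted p = 0.452 and 0.0952), and the median was −0.05.

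Of 15 fatty acid synthesis genes 14 were tested, of which by edgeR 0 rose, 4 fell and 10 did not pass. An unadjusted p under 0.05 was found for 5, beside 24.9% of all genes tested, and the median was −0.01. DESeq2 also called 0 higher and 4 lower. Over all 13679 genes tested, edgeR called 4.58% lower and DESeq2 called 835 lower. Fasn, the fatty acid synthase, fell from 291, 326 and 272 CPM in controls to 190, 185 and 210 CPM in knockout libraries (a log2 fold change of −0.61 with SE 0.08, adjusted p = 0.00648 by edgeR). Fads1, a desaturase of polyunsaturated fatty acids, fell from 74.1, 76.1 and 92.6 to 36.6, 36.9 and 55.4 CPM (log2 fold change −0.92, adjusted p = 0.0156). Fads2, the companion desaturase, and the elongase Elovl6 fell with log2 fold changes of −0.52 and −0.43 (adjusted p = 0.041 and 0.0417). Acaca, which makes malonyl-CoA, and Acly did not pass (0.06 and −0.15, adjusted p = 0.75 and 0.226), and both were named after their values were seen.

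Over these 7 lists 13 of 94 genes passed, beside 8.42% of all genes tested. With the sex term 1 passed, beside 0.314% of all genes, Fasn (log2 fold change −0.74, edgeR adjusted p = 0.0467). Without knockout replicates 1, 2 and 3 the lists had 5, 3 and 8 genes past the test, and without control replicates 1, 2 and 3 they had 5, 7 and 6. Fasn and Hadh kept their call in all 6 of these fits.

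**Figure D4:**
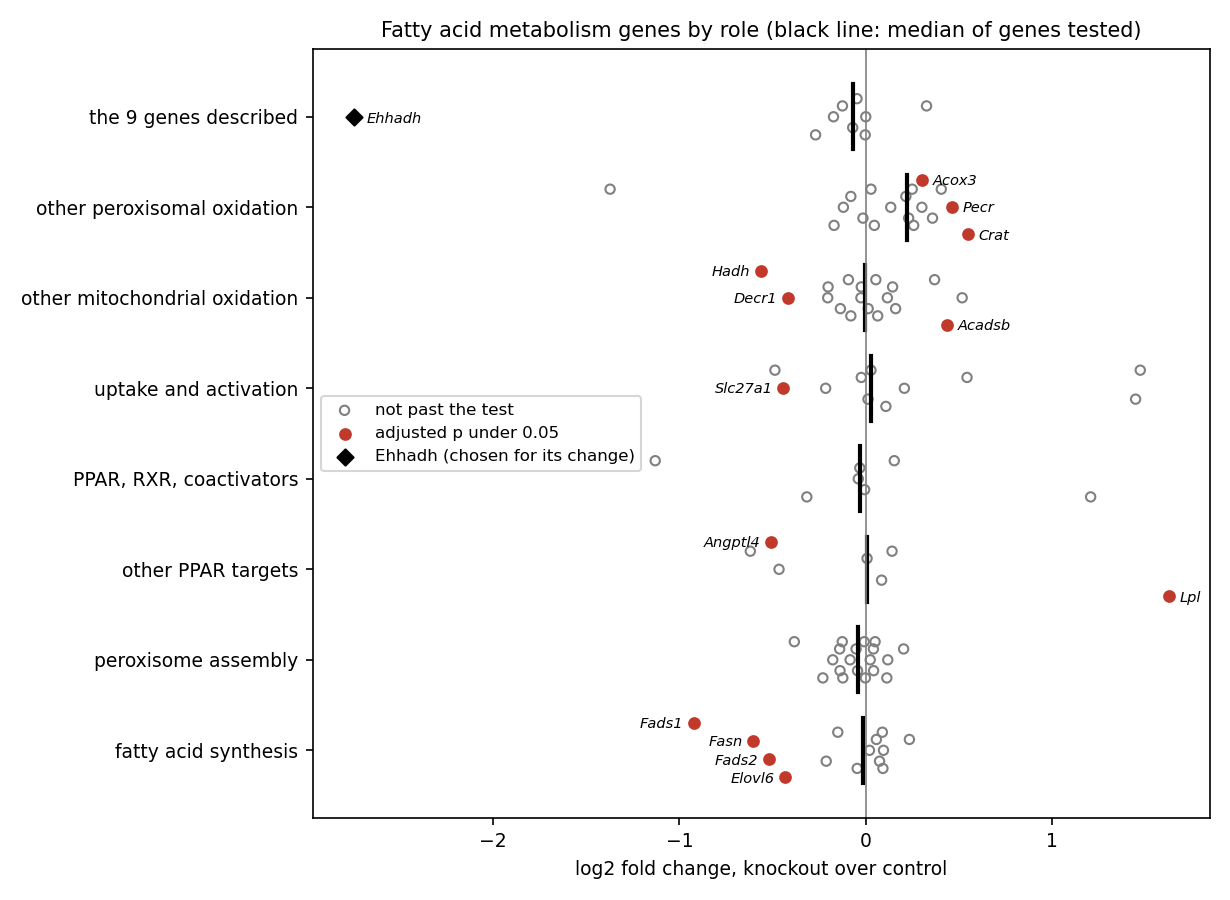
Log2 fold change of knockout over control (horizontal axis) for each tested gene, by role (rows), with red points for an adjusted p under 0.05, open points for genes that did not pass, a black diamond for Ehhadh, and a black line for each list's median. Medians lie between −0.07 and 0.22, and the 4 synthesis genes past the test all lie below 0.

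Around Ehhadh on chromosome 16, 23 other genes were annotated within 500 kb, of which 10 were in the table and 7 were tested. Of these, 0 were higher and 1 was lower, beside 3.85% and 4.58% of all genes tested. The nearest tested, 1300002E11Rik, starts 6.51 kb away on the opposite strand and overlaps Map3k13. It had 10.04, 12.7 and 11.6 CPM in the knockout libraries against 6.64, 7.57 and 9.57 CPM, the opposite direction to Ehhadh, and did not pass (log2 fold change 0.53, edgeR adjusted p = 0.104). Tmem41a, a membrane protein gene 146.5 kb away, fell from 15.9, 19.4 and 22.3 to 11.6, 9.28 and 13.8 CPM (log2 fold change −0.75, edgeR adjusted p = 0.0409). That call held without knockout replicate 3 (adjusted p = 0.0464) and was lost without any other single library (0.0547 to 0.134). It was also lost with the sex term, where the log2 fold change was −0.76. Vps8, 2510009E07Rik, Senp2, Igf2bp2 and Tra2b had log2 fold changes of 0.21, −0.74, 0.11, 0.32 and −0.09 and did not pass.

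Among the 5 genes whose log2 CPM followed Ehhadh most closely over the 6 libraries, of 12221 compared, were Tspan3, Sccpdh, Ccnd2 (Pearson r 0.995 each) and Rcc2 (0.994). Sccpdh had 3.91, 5.28 and 4.90 CPM against 16.3, 13.6 and 14.9 CPM, and Ccnd2, a G1 cyclin, 146, 166 and 158 CPM against 247, 228 and 260 CPM. Tspan3 and Rcc2 had log2 fold changes of −0.53 and −0.23. The likeness is a description over 6 libraries that share 1 group difference.

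Summed markers of other cells lay apart between the groups, except those of mast cells and basophils, which overlapped. Summed levels were 7169 to 9189 CPM in knockout libraries against 2967 to 5742 CPM in controls for 11 neutrophil genes (4 higher), 2022 to 2695 against 1264 to 1480 CPM for 9 monocyte and macrophage genes (5 higher), and 65.8 to 192 against 11.5 to 23.4 CPM for 6 erythroblast genes (5 higher). For 7 mast cell and basophil genes the sums were 140 to 275 against 195 to 547 CPM (2 lower of 5 tested), and for 8 B and T cell genes 36.6 to 42.0 against 46.4 to 55.3 CPM (1 lower). Over all genes tested, edgeR called 3.85% higher and 4.58% lower. Of the neutrophil genes, S100a8, S100a9, Camp, Retnlg, Cxcr2, Mmp8 and Mmp9 did not pass. Mmp8 and Mmp9 were at 98.9% and 91.3% of their control means. Of the 8 B and T cell genes, 6 had a positive log2 fold change and 2 a negative one. The lists held 12 neutrophil, 10 monocyte and macrophage and 8 erythroblast genes, of which Ly6g, Adgre1, Ahsp and Epb42 were not in the count table under those symbols. None of the markers found in the count table was at 0 in all libraries. Their part in the values of Ehhadh and of the other genes above was not tested.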

How the data were processed

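RNA of 6 libraries, 3 labelled knockout and 3 control, was read from the count table that the authors deposited, which holds raw read counts per gene symbol without normalization. Per the submitters' processing notes, STAR and mm10 were used. Which tool counted the reads, with which annotation and strand setting, is not stated there or in the labels. The test was that of edgeR 4.0.16, run in R 4.3.3 on these counts: filterByExpr (minimum count 10, minimum total 15) kept 13679 of 24063 symbols, TMM gave the scaling, and the quasi-likelihood F test had the group as its sole term, with Benjamini-Hochberg adjustment over all symbols and a threshold of 0.05. CPM values were computed from the deposited counts after TMM scaling. The closest pair of libraries had a chi-square of 10.2 per degree of freedom, and each was therefore counted as a separate library. Positions and transcript lengths (the longest APPRIS principal transcript) are from GENCODE M21 on the same assembly, and promoters from RefSeq GRCm38.p6.

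The 9 genes and the lists were chosen with earlier results of these data known. Genes named beside the 9 are, from each list, up to 5 past the threshold, otherwise the 2 with the largest change at a mean of at least 1 log2 CPM, the tested neighbours of Ehhadh within 500 kb, and the 5 genes most correlated with it, of which 1 is not reported here. Any other gene was picked with its values in view. Sex was read from Xist and from the Y-linked genes. The fit was tested on simulated counts. Alternatives were edgeR with size factors from DESeq2 or with upper-quartile scaling, all genes kept regardless of counts, a minimum of 1 CPM in 3 or more libraries, limma-voom (limma 3.58.1), DESeq2 1.42.0, the replicate number as a block, a sex term, and each library left out in turn.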

Additional observations from a re-analysis of the deposited data

How the results depend on the processing

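With a sex term, which compares the knockout libraries with 1 female control, 1 of the other pathway genes and 43 of all genes passed the test, against 13 and 1152 by group alone. Leaving out 1 library at a time gave 3 to 8 and 290 to 984. With the replicate number as a block the counts were 21 and 2172. Among the 9 genes the number beyond the threshold was 0 with the sex term, 1 by group alone and with the block, and 1 to 2 with 1 library left out. It includes Ehhadh, which was chosen for its change, so for that gene it is a description and no test, and the second is Acaa1a without control replicate 2. Deviations of same-numbered libraries from their group means correlated at 0.293, −0.0048 and 0.339, not every knockout library correlated best with its own number, and nothing in the labels ties the numbers to a shared animal or day, so the numbers were not taken as pairs. The scalings, filters, DESeq2 and limma-voom kept these counts within 1.5 times the value by group alone. Ehhadh kept its direction in all 14 alternatives, from −2.99 to −2.42.

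Some log2 fold changes changed sign, those of Hsd17b4, Hadha and Cpt2 from values close to 0. Hsd17b4 became 0.001 with DESeq2 size factors, 0.000 with DESeq2, and −0.039 to 0.042 with 1 library left out (above 0 without knockout replicate 1 or control replicate 2). Cpt2 became 0.065 with the sex term, under which Igf2bp2, a neighbour of Ehhadh, went from 0.32 to −0.128. Hadha became 0.004 with DESeq2 size factors and with DESeq2, and −0.036 to 0.037 with 1 library left out (below 0 without knockout replicate 2 or control replicate 3). The cause was not tested. The low read counts of Ehhadh in the knockout libraries, 11 to 30, limit the precision of its level there.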
